A study of Mus musculus with 10 samples.

Results

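The dual-specificity MAP kinase phosphatases described here are *Dusp1*, *Dusp3*, *Dusp4*, *Dusp5*, *Dusp6*, *Dusp7*, *Dusp8*, *Dusp10*, *Dusp14* and *Dusp16*. They were chosen by gene name, with earlier results of these data known. Every probe set annotated to only 1 of these genes was taken, which gave 18 probe sets for 10 of the 18193 genes on the array. A single probe set reads *Dusp1*, *Dusp4*, *Dusp5*, *Dusp6* and *Dusp14*, 2 read *Dusp10* and *Dusp16*, and 3 read *Dusp3*, *Dusp7* and *Dusp8*. RNA from the cerebral cortex of 5 WT mice and 5 littermates lacking *Crtc1* (labelled Crtc1KO, written *Crtc1*-/- below) was hybridized to 10 Affymetrix GeneChip arrays, 1 per sample. All mice were untreated C57BL/6N females aged 2 months, and by the study's methods such mice lived in isolation before they were killed. The knockout is carried by all cells of the mouse, and the tissue is whole cortex, so fewer cells of a type and less RNA per cell cannot be told apart. The labels number the samples within a genotype without naming the animals, so p-values cover the spread between these samples, each of which is called a mouse below.

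MAP kinases are switched on when a threonine and a tyrosine in their activation loop are phosphorylated, and dual-specificity phosphatases switch them off by removing both phosphates. The MAP kinases are the ERK, JNK and p38 families, and the phosphatases differ in which of these they prefer and where in the cell they sit. *Dusp1*, *Dusp4* and *Dusp5* encode nuclear enzymes whose transcription is induced by growth factor, stress or synaptic signals. *Dusp6* and *Dusp7* encode cytoplasmic enzymes that prefer ERK, and *Dusp6* is a classical negative feedback gene of ERK signaling. *Dusp8*, *Dusp10* and *Dusp16* encode phosphatases that prefer JNK and p38. *Dusp3* and *Dusp14* encode small atypical enzymes that have the catalytic domain without the MAP kinase binding domain. CRTC1, the protein missing in *Crtc1*-/- mice, is a coactivator of CREB, a transcription factor that binds the cAMP response element (CRE) in promoters.

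Because CREB acts through the CRE, the upstream sequences of the phosphatase genes were searched for it. RefSeq promoters of GRCm38.p6, which run from 250 bases before to 50 bases after a transcription start, were at hand for 9 of the 10 genes and not for *Dusp4*. The full CRE, with the letters TGACGTCA on either strand, lay in the windows of *Dusp1* and *Dusp8* and in 1.79% of 32851 promoters of the same length. *Dusp8* held it at 2 places, which was so in 0.0396% of all promoters. The short CRE, TGACG or its reverse complement CGTCA, both of which also lie inside every full CRE, was found in *Dusp1*, *Dusp5*, *Dusp8* and *Dusp16* and in 20.8% of promoters. The CArG box, which serum response factor binds, was found in the window of *Dusp5* alone, at 2 places, and in 1.63% of promoters on either strand. The AP-1 site, TGACTCA or TGAGTCA, was found in none of the 9 windows and in 5.2% of promoters. Such matches describe the letters and do not show binding.

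The 250 bases before the start are shown for *Dusp1* and *Dusp8*, the genes with a full CRE, and for *Dusp3*, which has neither the full nor the short CRE and stood next to *Dusp1* in its response. Capitals mark full and short CRE matches. *Dusp1* lies at chr17:26508473-26508722, *Dusp8* at chr7:142095285-142095534 and *Dusp3* at chr11:101984792-101985041 of GRCm38.p6, each on the minus strand and written 5′ to 3′ along the gene.
Dusp1: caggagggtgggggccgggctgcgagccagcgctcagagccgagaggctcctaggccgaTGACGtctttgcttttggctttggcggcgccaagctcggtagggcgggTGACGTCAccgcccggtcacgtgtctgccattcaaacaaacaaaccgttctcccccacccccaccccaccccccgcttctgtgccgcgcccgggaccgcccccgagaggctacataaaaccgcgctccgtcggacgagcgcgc
Dusp8: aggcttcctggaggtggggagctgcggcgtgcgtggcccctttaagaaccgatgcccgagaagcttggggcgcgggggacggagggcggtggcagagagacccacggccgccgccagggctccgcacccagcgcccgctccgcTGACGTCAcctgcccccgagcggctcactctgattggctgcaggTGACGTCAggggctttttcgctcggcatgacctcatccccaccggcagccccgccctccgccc
Dusp3: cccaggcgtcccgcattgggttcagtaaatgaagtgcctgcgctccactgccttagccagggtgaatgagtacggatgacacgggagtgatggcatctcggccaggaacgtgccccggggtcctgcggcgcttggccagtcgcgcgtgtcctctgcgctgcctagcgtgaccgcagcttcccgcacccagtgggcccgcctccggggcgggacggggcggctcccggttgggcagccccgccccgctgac
The full CRE of *Dusp1* starts 143 bases upstream of the transcription start and its further short CRE 191 bases upstream. The full CREs of *Dusp8* start 107 and 63 bases upstream.

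*Crtc1* itself was low in every *Crtc1*-/- mouse. The 5 WT mice read from 9.51 to 9.86 (log2 values) at its brightest probe set, 1434476_at, and the 5 *Crtc1*-/- mice from 5.96 to 6.60. Medians of the 10 arrays lay within 0.0322 log2 units of each other, and arrays correlated pairwise at 0.994 to 0.998. Array values are log2 units of hybridization signal and cannot be compared between probe sets. As a reference for background, the 9 probe sets of Y-linked genes, which female mice lack, had means up to 3.17, with a median of 2.85. Only the dimmer *Dusp16* probe set, 1440615_at, was at that level, and the other 17 phosphatase probe sets had means above it. Because values differ between probe sets, this reference is rough, and a mean above it does not show detection.

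*Dusp1* was lower in every *Crtc1*-/- mouse than in any WT mouse and was the only gene of the 10 that passed the test. Over genes, where the brightest probe set stands for each gene, 1 of 10 phosphatases was called lower and none higher, against 0.764% of all genes called in either direction, 0.456% called lower and 0.308% called higher. Over probe sets, none of the 18 passed, against 0.302% of all 45037 probe sets. At an unadjusted p under 0.05, 4 of the 18 probe sets were lower and none was higher, against 7.19% of all probe sets in either direction with 3.92% lower and 3.27% higher. These 4 read *Dusp1*, *Dusp3* (2 probe sets) and *Dusp14*. The median log2 fold change of the 10 genes was −0.014, beside −0.0030 for all genes, and 6 of the 10 were below 0.

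**Figure D1:**
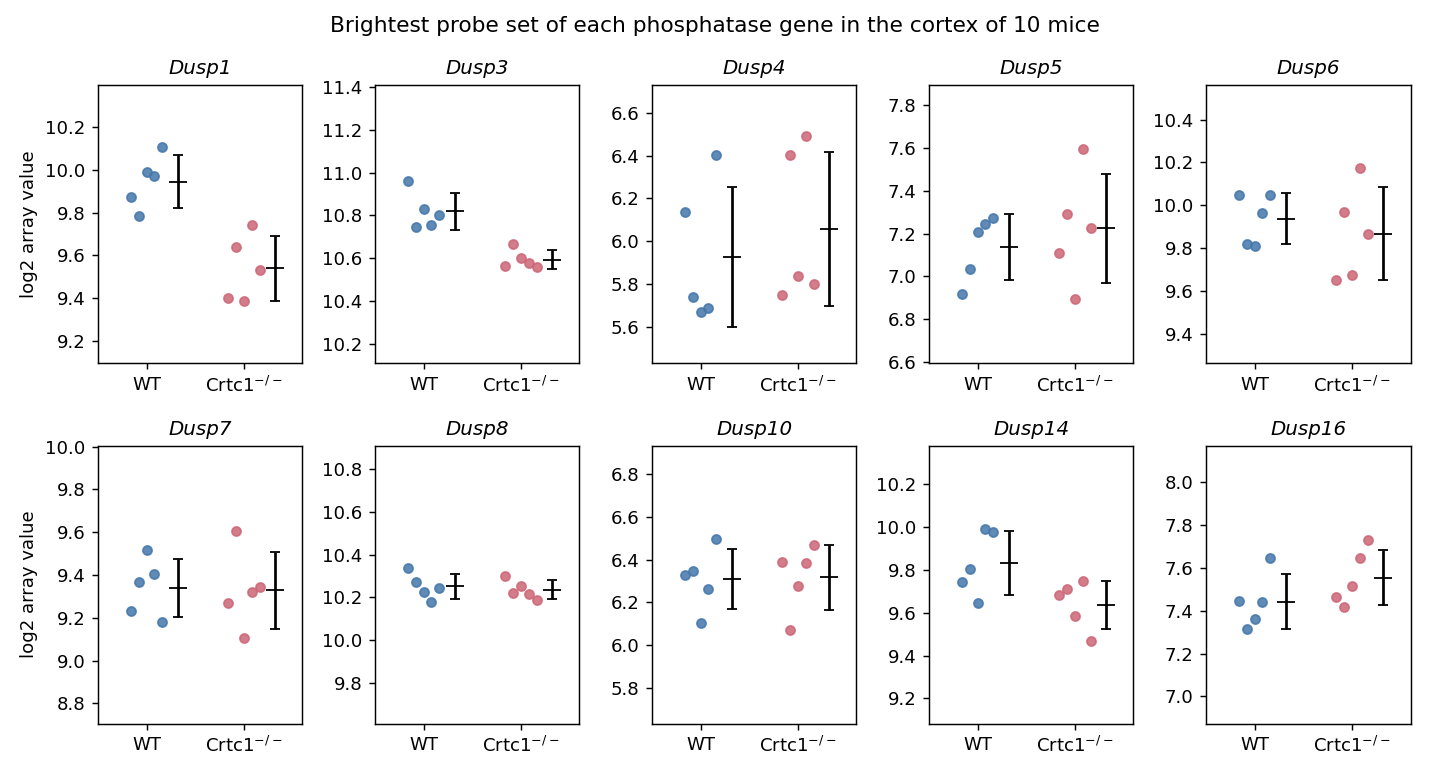
Log2 array values (y axis) of the brightest probe set of each of the 10 phosphatase genes in 5 WT (blue) and 5 *Crtc1*-/- (red) mice, where points are single mice and bars give mean ± SD. No y axis begins at 0, and all span the same number of log2 units. The genotypes are apart in the panels of *Dusp1* and *Dusp3* and overlap in the other 8.

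Among the inducible nuclear phosphatases, *Dusp1* fell and *Dusp4* and *Dusp5* did not pass the test. DUSP1, also called MKP-1, is an immediate early phosphatase that acts on p38, JNK and ERK. In WT mice 1 to 5, *Dusp1* (1448830_at) read 9.88, 9.78, 9.99, 9.97 and 10.11 on the log2 scale. In *Crtc1*-/- mice 1 to 5 it read 9.40, 9.64, 9.39, 9.74 and 9.53. The groups came closest between WT replicate 2 and *Crtc1*-/- replicate 4, which were still apart. The means were 9.95 ± 0.12 and 9.54 ± 0.15 (SD, n = 5 per genotype), a log2 fold change of −0.41 (standard error 0.08), so *Dusp1* was at 0.755 of its WT level (95% confidence interval 0.668 to 0.854). In limma, the test gave an adjusted p of 0.0401 over genes and 0.0831 over probe sets. The call over genes was kept without WT replicate 2 (adjusted p = 0.0386) or *Crtc1*-/- replicate 4 (adjusted p = 0.0231) and was lost when WT replicate 1, 3, 4 or 5 or *Crtc1*-/- replicate 1, 2, 3 or 5 was left out (adjusted p from limma between 0.0636 and 0.105). The log2 fold change itself ran from −0.46 to −0.36 with each array left out.

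*Dusp4*, which encodes the ERK and JNK phosphatase MKP-2, varied more between mice than between genotypes. Its probe set 1428834_at read 6.14, 5.74, 5.67, 5.69 and 6.40 in WT mice 1 to 5, and 5.75, 6.40, 5.84, 6.49 and 5.80 in *Crtc1*-/- mice 1 to 5. In both genotypes 2 mice were high and 3 were low, and the groups overlapped over most of their range. This gave a log2 fold change of 0.13 (95% confidence interval −0.27 to 0.53, adjusted p = 0.893 over genes from limma).

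*Dusp5*, whose product is a nuclear phosphatase specific for ERK, read 6.92, 7.04, 7.21, 7.24 and 7.27 in WT mice 1 to 5. In *Crtc1*-/- mice 1 to 5 the same probe set, 1437199_at, read 7.11, 7.29, 6.90, 7.60 and 7.23. The *Crtc1*-/- values enclosed the WT values on both sides. The log2 fold change was 0.088 (95% confidence interval −0.17 to 0.34, adjusted p = 0.884 over genes from limma).

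The cytoplasmic ERK phosphatases *Dusp6* and *Dusp7* did not pass the test, and their intervals left room for changes of about 0.2 to 0.3 on the log2 scale. *Dusp6* (1415834_at), which encodes MKP-3, read 10.05, 9.82, 9.81, 9.97 and 10.05 in WT mice 1 to 5 and 9.65, 9.97, 9.67, 10.17 and 9.87 in *Crtc1*-/- mice 1 to 5. The highest and the lowest values both came from *Crtc1*-/- mice. The log2 fold change of *Dusp6* was −0.071 (95% confidence interval −0.29 to 0.14, adjusted p = 0.890 over genes from limma). *Dusp7* (1452097_a_at), which encodes MKP-X, read 9.23, 9.37, 9.52, 9.41 and 9.18 in WT mice and 9.27, 9.60, 9.10, 9.32 and 9.34 in *Crtc1*-/- mice 1 to 5. Its means were 9.34 ± 0.14 and 9.33 ± 0.18 (SD, n = 5 per genotype), a log2 fold change of −0.011 (95% confidence interval −0.21 to 0.19). The other *Dusp7* probe sets had log2 fold changes of 0.019 (1427416_x_at) and −0.075 (1460393_a_at), so the sign differed between probe sets of this gene.

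Of the phosphatases that prefer JNK and p38, none passed the test, and the brightest probe set of *Dusp8* had the narrowest interval among the 10 genes. *Dusp8*, whose window holds 2 full CREs, is known for its expression in brain. Its brightest probe set, 1428864_at, read 10.34, 10.27, 10.22, 10.18 and 10.25 in WT mice 1 to 5 and 10.30, 10.22, 10.25, 10.21 and 10.19 in *Crtc1*-/- mice 1 to 5. The values of both genotypes lay within the same narrow range. Its log2 fold change was −0.017, and the 95% confidence interval of −0.12 to 0.083 did not reach the change seen for *Dusp1*. The 2 further probe sets of *Dusp8* had log2 fold changes of −0.055 (1418714_at, 95% confidence interval −0.15 to 0.038) and −0.011 (1447346_s_at, 95% confidence interval −0.11 to 0.089).

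*Dusp10*, which encodes MKP-5, read 6.33, 6.35, 6.11, 6.26 and 6.49 in WT mice 1 to 5 and 6.39, 6.07, 6.28, 6.38 and 6.47 in *Crtc1*-/- mice 1 to 5 (1417164_at). The groups overlapped almost completely, with a log2 fold change of 0.0089 (95% confidence interval −0.18 to 0.20). Its dimmer probe set, 1417163_at, had a log2 fold change of 0.10 (95% confidence interval −0.14 to 0.34). *Dusp16* (1418401_a_at), which encodes MKP-7, read 7.45, 7.31, 7.36, 7.44 and 7.65 in WT mice 1 to 5 and 7.47, 7.42, 7.52, 7.65 and 7.73 in *Crtc1*-/- mice 1 to 5. *Crtc1*-/- replicates 4 and 5 lay above the highest WT value, replicate 4 by less than the printed decimals show, and the other 3 lay within the WT range. The log2 fold change of *Dusp16* was 0.11 (95% confidence interval −0.055 to 0.28, adjusted p = 0.715 over genes from limma).

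Both small atypical phosphatases had lower means in *Crtc1*-/- mice, and neither passed the test. *Dusp3*, which encodes the ERK and JNK phosphatase VHR, did not overlap between genotypes at its brightest probe set. That probe set, 1434472_at, read 10.96, 10.74, 10.83, 10.76 and 10.80 in WT mice 1 to 5. In *Crtc1*-/- mice 1 to 5 it read 10.56, 10.66, 10.60, 10.58 and 10.56, each below all WT values. The means were 10.82 ± 0.09 and 10.59 ± 0.04 (SD, n = 5 per genotype), a log2 fold change of −0.23 (standard error 0.05). *Dusp3* was thus at 0.855 of its WT level (95% confidence interval 0.792 to 0.924), with an adjusted p from limma of 0.0652 over genes and 0.150 over probe sets. With a trended and robust prior it passed (adjusted p = 0.00852 over genes). It did not with values averaged over its probe sets (log2 fold change −0.21, adjusted p = 0.311 from limma), nor with the replicate number as a block (adjusted p = 0.242 from limma).

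The other *Dusp3* probe sets had fold changes of similar size. At 1456769_at the values were 7.08, 7.12, 7.26, 7.23 and 7.13 in WT mice and 6.86, 7.07, 6.85, 7.06 and 7.03 in *Crtc1*-/- mice 1 to 5. These groups were apart as well, with a log2 fold change of −0.19 (95% confidence interval −0.32 to −0.053), and limma gave an adjusted p of 0.463 over probe sets. At 1425608_at the *Crtc1*-/- values spread from 6.52 to 7.45, beyond the WT values of 6.90 to 7.42 on both sides, and the log2 fold change was −0.22 (95% confidence interval −0.57 to 0.13). In all, the genotypes did not overlap in 3 of 18 phosphatase probe sets, all lower in *Crtc1*-/- mice, against 1.37% of all probe sets in that direction, 0.713% in the other and 2.08% in either. Of these 3, 2 read the same gene.

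*Dusp14* (1431422_a_at), which encodes MKP-6, read 9.74, 9.80, 9.65, 9.99 and 9.98 in WT mice 1 to 5. In *Crtc1*-/- mice 1 to 5 it read 9.68, 9.71, 9.59, 9.75 and 9.47, so the groups overlapped between the lower WT and the higher *Crtc1*-/- values. The log2 fold change was −0.20 (95% confidence interval −0.37 to −0.024), with an unadjusted p of 0.0292 and an adjusted p of 0.409 over genes from limma.

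**Figure D2:**
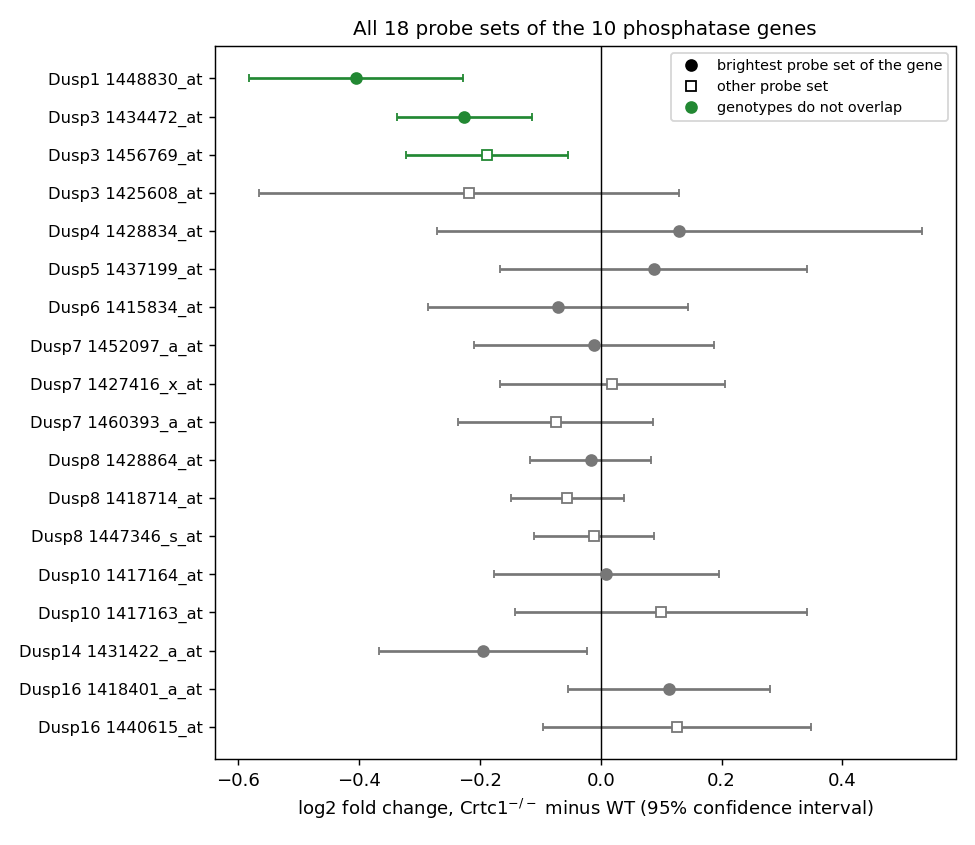
Log2 fold changes (*Crtc1*-/- minus WT, x axis) with 95% confidence intervals from limma for all 18 probe sets of the 10 phosphatase genes (y axis), where circles are the brightest probe set of a gene, squares are the others and green marks probe sets whose genotypes do not overlap. *Dusp1* lies farthest to the left at −0.41, the *Dusp3* probe sets lie between −0.23 and −0.19, and the 3 *Dusp8* probe sets have the narrow intervals around 0.

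To compare *Dusp1* with the other phosphatases, the difference between its log2 value and that of each other gene was taken within each mouse and compared between genotypes with a two-sided exact permutation test. These 9 comparisons share the *Dusp1* values and were chosen after the fold changes were known. The change of *Dusp1* was lower than that of *Dusp5* by 0.49, of *Dusp6* by 0.33 and of *Dusp16* by 0.52 on the log2 scale, and in these 3 comparisons the genotypes did not overlap (exact permutation test, p = 0.00794, the lowest value that any split of these mice can give, and adjusted p = 0.0238 over the 9). It was lower than that of *Dusp4* by 0.54, of *Dusp7* by 0.39 and of *Dusp8* by 0.39 (exact permutation test, p = 0.0159 and adjusted p = 0.0238 for each), and than that of *Dusp10* by 0.41 (exact permutation test, p = 0.0238, adjusted p = 0.0306). The changes of *Dusp1* and *Dusp3* differed by 0.18 (exact permutation test, p = 0.103) and those of *Dusp1* and *Dusp14* by 0.21 (exact permutation test, p = 0.0556, adjusted p = 0.0625), which did not pass.

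The deviations of each mouse from the mean of its genotype were compared between the 10 genes, and none of the 45 pairs passed the correction. *Dusp1*, *Dusp4*, *Dusp5* and *Dusp6*, the genes of the 3 pairs with the highest r, are described as a group that was chosen after these values were seen. *Crtc1*-/- replicate 4 was the highest of its group for these 4 genes, and *Crtc1*-/- replicates 1 and 3 were below the group mean for all 4. WT replicate 5 was the highest WT mouse for all 4. Over deviations of the 10 mice from their genotype means, *Dusp1* and *Dusp5* had a Pearson r of 0.89 and a Spearman rho of 0.87 (exact permutation within genotype, p = 0.00146 for r and p = 0.00243 for rho, n = 10). Over the 45 pairs of the 10 genes, the adjusted p of this pair was 0.0656 for r and 0.109 for rho. Without *Crtc1*-/- replicate 4 and WT replicate 2, the mice farthest from the median of *Dusp1*, r was 0.88.

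The next pairs were *Dusp4* with *Dusp6* (r = 0.84, rho = 0.84, exact permutation p = 0.00840 and 0.00653, n = 10) and *Dusp1* with *Dusp6* (r = 0.81, rho = 0.72, exact permutation p = 0.0133 and 0.0341, n = 10). Their adjusted p over the 45 pairs was 0.189 and 0.147 for *Dusp4* with *Dusp6*, and 0.199 and 0.470 for *Dusp1* with *Dusp6*, for r and rho in turn. With the 2 mice farthest from the median of the first gene left out, r was 0.76 and 0.70. *Dusp10* with *Dusp16* followed, with an r of 0.73 and a rho of 0.64 (exact permutation p = 0.0276 and 0.0712, adjusted p = 0.311 and 0.513, n = 10), and an r of 0.71 without *Crtc1*-/- replicate 2 and WT replicate 3.

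The other 3 pairs among the 4 genes were weaker. *Dusp1* with *Dusp4* had an r of 0.72 and a rho of 0.50 (exact permutation p = 0.0427 and 0.170, adjusted p = 0.336 and 0.513, n = 10), and an r of 0.63 without *Crtc1*-/- replicate 4 and WT replicate 2. *Dusp4* with *Dusp5* had an r of 0.49 and a rho of 0.39 (exact permutation p = 0.197 and 0.294, adjusted p = 0.547 and 0.695, n = 10), and r was 0.0024 without WT replicate 5 and *Crtc1*-/- replicate 4, so this relation rests on those mice. *Dusp5* with *Dusp6* had an r of 0.70 and a rho of 0.62 (exact permutation p = 0.0597 and 0.0742, adjusted p = 0.336 and 0.513, n = 10), and r fell to 0.25 without *Crtc1*-/- replicates 3 and 4, which this relation rests on as well. The study's methods state that its experiments ran on successive batches of mice with pooled data. The labels give no batch that could be set against these shared deviations.

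**Figure D3:**
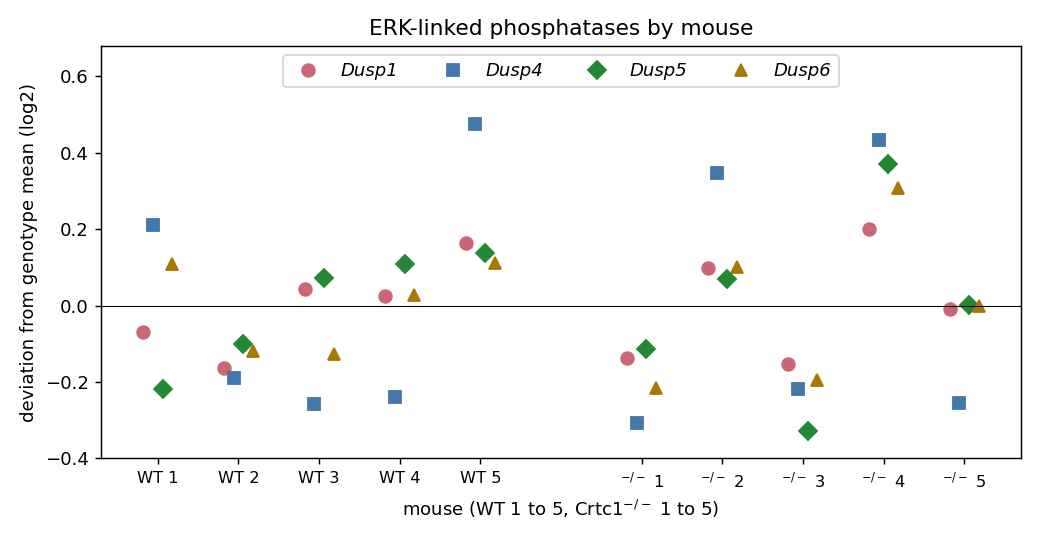
Deviation of the log2 array value from the mean of the genotype (y axis) for *Dusp1*, *Dusp4*, *Dusp5* and *Dusp6* in each of 5 WT and 5 *Crtc1*-/- mice (x axis), with 1 symbol per gene. The 4 symbols lie above 0 together in *Crtc1*-/- replicates 2 and 4 and WT replicate 5, and below 0 together in *Crtc1*-/- replicates 1 and 3 and WT replicate 2.

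For each phosphatase, the most similar other gene on the array was sought by the Pearson r of these deviations over the 10 mice, a search over all other genes in which a high r is found by construction and for which no p is given. For *Dusp1* it was *Spry2*, a feedback inhibitor of receptor tyrosine kinase signaling to ERK (r = 0.95, rho = 0.94), whose own log2 fold change was −0.028 (adjusted p = 0.947 over genes from limma). For *Dusp4* it was *Ppm1b*, another phosphatase of the stress-activated MAP kinase pathways (r = 0.98, rho = 0.87), with a log2 fold change of 0.065. The genes most similar to the others were *Csrnp2* for *Dusp3*, *Prg4* for *Dusp5*, *Zcchc9* for *Dusp6*, *Nr2f2* for *Dusp7*, *Aen* for *Dusp8*, *Rhoq* for *Dusp10*, *Cldn1* for *Dusp14* and *Prpf38a* for *Dusp16*, with r between 0.94 and 0.98.

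The rest of the MAP kinase pathway held no gene that passed the test. None of 9 measured MAP kinases passed, and their log2 fold changes lay between −0.072 and 0.16, with *Mapk11*, a p38 kinase, at 0.14 (adjusted p = 0.489 over genes from limma). None of 18 measured small GTPases and kinases upstream of the MAP kinases passed, with a median log2 fold change of −0.044 and *Braf*, which activates the ERK cascade, at −0.082 (adjusted p = 0.609). None of 17 measured substrates and effectors passed, with a median of 0.027 and *Jun*, a substrate of JNK, at 0.21 (adjusted p = 0.152). At an unadjusted p under 0.05, 1 of the 9, none of the 18 and 2 of the 17 were found, against 9.86% of all genes.

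Genes that ERK signaling induces, or that feed back on it, spread widely in both directions. None of 23 measured genes passed, while 10 had an unadjusted p under 0.05, against 9.86% of all genes, 6 of them below 0 and 4 above. The median log2 fold change was −0.029, with 13 genes below 0 and 10 above. *Fos*, an immediate early transcription factor, stood at −0.83 (limma, adjusted p = 0.120 over genes), and its genotypes overlapped. It passed without *Crtc1*-/- replicate 4 (limma, adjusted p = 0.0193) and under no other alternative. *Fosl2*, a relative of *Fos*, was at −0.44 (adjusted p = 0.151), with all *Crtc1*-/- mice below all WT mice. *Junb* at −0.38 and *Fosb* at −0.34 were below 0 too (adjusted p = 0.407 and 0.435). Other immediate early genes of the list went in both directions. Above 0 were, among others, *Egr2* at 0.81 (adjusted p = 0.351), *Arc* at 0.45 (adjusted p = 0.424), *Egr1* at 0.25 (adjusted p = 0.387) and *Egr3* at 0.15 (adjusted p = 0.449). *Ier2* at −0.072, *Myc* at −0.12 and *Fosl1* at −0.067 were below 0 (adjusted p from limma 0.858, 0.730 and 0.868). The feedback inhibitors of the Sprouty family, which restrain the same pathway as the phosphatases, had log2 fold changes of 0.12 (*Spry1*), −0.028 (*Spry2*), −0.17 (*Spry3*) and 0.048 (*Spry4*).

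Phosphatases outside the 10 genes held no call either. None of 7 measured phosphatases of other families that act on MAP kinases passed, 1 had an unadjusted p under 0.05, and their median was 0.0086. *Ptpn5*, the striatum-enriched tyrosine phosphatase STEP, which dephosphorylates ERK in neurons, was at −0.11 (adjusted p = 0.324 over genes from limma), with the genotypes apart. None of 11 other dual-specificity phosphatases passed, and none had an unadjusted p under 0.05. Their log2 fold changes lay between −0.067 (*Dusp28*) and 0.075 (*Dusp23*), a narrower range than that of the 10 members, which ran from −0.41 to 0.13. Among these 11, *Dusp2* (0.068) and *Dusp9* (−0.032) also encode MAP kinase phosphatases, so the 2 ranges do not set such enzymes against others.

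**Figure D4:**
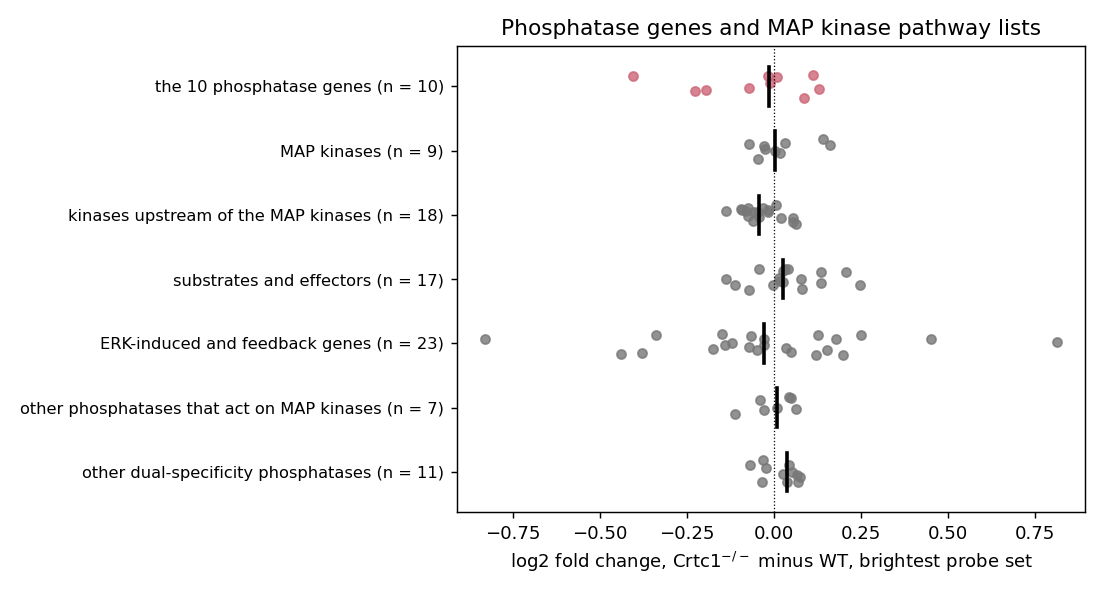
Log2 fold changes (*Crtc1*-/- minus WT, x axis) of the brightest probe set of each gene, as points, for the 10 phosphatase genes (red) and for 6 lists of MAP kinase pathway genes (grey), with vertical bars at the medians. All medians lie between −0.044 and 0.038, and the ERK-induced genes spread from −0.83 to 0.81.

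Markers of cell types and regions differed between genotypes in the same arrays. The cortical markers *Slc17a7*, *Tbr1*, *Neurod6*, *Cux2* and *Camk2a* had means far above the Y-linked reference in both genotypes, as the tissue label has it. Of these 5 excitatory neuron markers, all had a log2 fold change below 0 and none passed, and the mean of the list ran from 10.50 to 10.53 in WT and from 10.38 to 10.44 in *Crtc1*-/- mice (exact permutation test, p = 0.00794, adjusted p = 0.0397 over 10 lists). All 10 measured oligodendrocyte markers were above 0 and none passed, with list means from 9.84 to 10.18 in WT and from 10.11 to 10.44 in *Crtc1*-/- mice (exact permutation test, p = 0.0317, adjusted p = 0.0794). Of 10 hippocampal markers, 6 were below 0 and 4 above, and 2 passed, both lower. The means of this list ran from 4.80 to 4.95 in WT and from 4.62 to 4.78 in *Crtc1*-/- mice (exact permutation test, p = 0.00794, adjusted p = 0.0397). The dimmest of these markers had a mean of 3.06 in both genotypes, at the level of the Y-linked reference. The 6 interneuron markers, of which *Sst* passed, had list means from 10.45 to 10.52 in WT and from 10.34 to 10.46 in *Crtc1*-/- mice (exact permutation test, p = 0.0159, adjusted p = 0.0529). Most of this difference came from *Sst*, with a log2 fold change of −0.54. The 5 that did not pass lay between −0.11 and 0.10, 1 of them above 0. The lists of astrocytes, microglia, endothelium, striatum, choroid plexus and blood gave exact permutation p between 0.143 and 0.976.

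With 2 of these marker means as covariates in turn, *Dusp1* kept its size and lost its call. With the oligodendrocyte marker mean its log2 fold change was −0.47 (adjusted p = 0.154 over genes from limma), and with the hippocampal marker mean it was −0.41 (adjusted p = 0.462). The hippocampal means did not overlap between genotypes, so this covariate carries much of the genotype difference. The standard error of *Dusp1* over genes rose from 0.079 to 0.10 and 0.13 in these fits. The lost calls thus do not measure the part of these markers in the change, which was not tested. *Dusp3* was at −0.22 and −0.30 in the same fits (adjusted p = 0.458 and 0.304). The part of the excitatory neuron markers in these values was not tested.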

How the data were processed

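Cortical cRNA was hybridized by the authors to Affymetrix mouse GeneChip arrays, and arrays of poor quality were excluded by them with the RACE package. The deposited values are log2, with 1 value per probe set and array, already normalized between arrays; the background correction, normalization and summarization are not given in the sources used here. Precision is limited by having 5 arrays per genotype. Detection calls were not at hand.

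Controls (64 of 45101 probe sets) were removed. The annotation names 1 gene for 34945 probe sets, several for 932 and none for 9160, and 34741 matched RefSeq of GRCm38.p6 by gene ID. All 45037 probe sets, or the brightest probe set of each of 18193 genes, were fitted with limma 3.58.1 (lmFit, eBayes; R 4.3.3) for the difference *Crtc1*-/- minus WT, two-sided, with Benjamini-Hochberg correction and a threshold of 0.05. Marker means were compared by exact permutation over mice. Scripts were tested on simulated data. Motifs were searched with Python 3.11.15.

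The members, pathway lists, marker lists and tests were chosen with earlier results of these data known. Named are all members, pathway genes that passed or at most 2 per list with the smallest p, and the gene most similar to each member. *Junb*, *Fosb*, *Fosl1*, *Ier2*, *Myc*, *Egr1*, *Egr2*, *Egr3*, *Arc*, *Spry1*, *Spry2*, *Spry3*, *Spry4*, *Dusp2*, *Dusp9*, *Dusp23* and the cortical markers were named after their values were seen. The alternatives were quantile normalization, median centring, leaving out dim (lowest 30%) or _x_at and _s_at probe sets, a trended and robust prior, the replicate number as a block, 2 marker means as covariates, gene values averaged over probe sets, and each array left out.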

Additional observations from a re-analysis of the deposited data

Results flagged for a closer look

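Among the 36 groups of 5 values given by 18 phosphatase probe sets and 2 genotypes, 1 had a mouse apart from the others by Dixon's test, which chance flags in about 1 of 20 groups. It was *Dusp8* at 1447346_s_at, where WT replicate 2 read 7.20 and the other WT mice lay between 7.06 and 7.08. Without that mouse the log2 fold change of this probe set was 0.014 in place of −0.011, and the other 2 *Dusp8* probe sets had no mouse apart.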

How the results depend on the processing

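Of the phosphatase genes, 1 (*Dusp1*) was called lower as reported. Leaving out dim probe sets gave 2 and the trended and robust prior gave 2, where *Dusp3* passed as well (adjusted p = 0.0455 and 0.00852 over genes from limma). Gene values averaged over probe sets gave 1, with *Dusp3* farther from passing (adjusted p = 0.311 from limma). The oligodendrocyte covariate gave 0, as did the hippocampal covariate, and the range with each array left out was 0 to 1. With the replicate number as a block the count was 0 (*Dusp1*, adjusted p = 0.130 from limma). The numbers showed no sign of pairing the mice, as correlations of same-numbered arrays ran from −0.327 to 0.0872 and 1 of 5 WT arrays correlated best with its own number. So few arrays cannot exclude a pairing. Over probe sets, 0 phosphatase probe sets were called, and 2 with the trended and robust prior. No phosphatase was called higher under any of the 19 alternatives. No pathway gene was called as reported, and with each array left out the count of lower ones was 0 to 1. *Crtc1* kept its call throughout.

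Over all probe sets, 84 were lower and 52 higher as reported, 154 and 85 with the trended and robust prior, 28 and 12 with the block, 20 and 9 with the oligodendrocyte covariate, 10 and 5 with the hippocampal covariate, and 45 to 77 and 24 to 40 with each array left out. The cause was not tested.

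The direction turned under some alternative in 8 of the 18 phosphatase probe sets, all with a reported log2 fold change of at most 0.10 in size. With the oligodendrocyte covariate, *Dusp7* 1452097_a_at was at 0.034, *Dusp8* 1428864_at at 0.0079 and *Dusp8* 1447346_s_at at 0.018. With the hippocampal covariate, *Dusp6* was at 0.0039, *Dusp7* 1427416_x_at at −0.043, *Dusp8* 1447346_s_at at 0.0070 and *Dusp10* 1417163_at at −0.0013. With each array left out, *Dusp5* ran from −0.0052 to 0.17, *Dusp7* 1452097_a_at from −0.080 to 0.045, *Dusp7* 1427416_x_at from −0.043 to 0.076, *Dusp8* 1428864_at from −0.035 to 0.0053, *Dusp8* 1447346_s_at from −0.030 to 0.014 and *Dusp10* 1417164_at from −0.042 to 0.070. Signal close to the Y-linked reference limits what *Dusp16* 1440615_at can show.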
